A study of Homo sapiens with 4 samples.

Results

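Tensins and the scaffold protein AKAP12 were followed in HepG2 cells, a human hepatocellular carcinoma cell line, through the rows of the deposited count tables for TNS1, TNS3, TNS4 and AKAP12. These are 4 of the 24462 genes in the tables, and each symbol was listed once. TNS4 and AKAP12 entered the set because they were among the firmest decreases in the CDK4/6 knockdown library, ranked 3 and 4 there by the upper end of the 95% interval of the fold change. Their values in that comparison are therefore a description. Just behind them in that order stood LAIR2 and SLC2A1, with fold changes of 0.0907 and 0.12.

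The series holds 4 libraries, 1 per condition, all from HepG2 cells grown in RPMI with fetal bovine serum. Cells received DMSO (the solvent) or PD0332991, a CDK4/6 kinase inhibitor, or were transfected with scrambled siRNA or with siRNA against both CDK4 and CDK6 (CDK4/6 KD). The dose of PD0332991 and the times of treatment and transfection are not given for the sequenced cells in the sources used here, and nothing states how many cultures a library came from. QuantSeq libraries start at the poly(A) tail, so reads come from the 3′ end of transcripts and their number does not grow with transcript length. With 1 library per condition there is no replicate check and no p-value, and the 95% intervals below cover counting error only.

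Tensins sit at focal adhesions and fibrillar adhesions, where they join the cytoplasmic tails of integrins to the actin cytoskeleton. TNS1, TNS2 and TNS3 carry an actin-binding amino-terminal part and a carboxy-terminal SH2 and PTB domain pair, while the short member TNS4, also called cten, keeps the SH2 and PTB domains and lacks the actin-binding part. In mammary epithelial cells, growth factor signalling is known to switch expression from TNS3 to TNS4, which frees integrins from actin and favours migration. AKAP12, also called gravin or SSeCKS, is an A-kinase anchoring protein that holds protein kinase A, protein kinase C and calmodulin at the plasma membrane, and its loss is known in hepatocellular carcinoma.

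In GENCODE 29 (GRCh38), TNS1 lies on chromosome 2 from 217799588 to 218033982, TNS3 on chromosome 7 from 47275154 to 47582558 and TNS4 on chromosome 17 from 40475828 to 40501597, all on the minus strand. AKAP12 lies on chromosome 6 from 151239999 to 151358557 on the plus strand. The annotation places no other gene over the last exon of the longest coding transcript of TNS1, TNS3, TNS4 or AKAP12, where 3′ reads are expected. That exon spans 5016, 3067, 1902 and 2831 bases in TNS1, TNS3, TNS4 and AKAP12. AKAP12 has 4 protein-coding transcripts with 4 distinct starts and only 2 distinct ends. Counts from the 3′ end therefore do not show which AKAP12 promoter was used.

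RefSeq lists 3 promoters for AKAP12, and they are printed because AKAP12 was the member whose level differed most between the 2 control libraries. Each runs 5′ to 3′ from 250 bases before to 50 after the start, on the plus strand of GRCh38.p14, at chr6:151239717-151240016, chr6:151325281-151325580 and chr6:151341456-151341755. Capitals mark the E-box CACGTG, which reads the same on both strands, and in the first promoter also a CArG box, the consensus site of serum response factor.
AKAP12 promoter 1: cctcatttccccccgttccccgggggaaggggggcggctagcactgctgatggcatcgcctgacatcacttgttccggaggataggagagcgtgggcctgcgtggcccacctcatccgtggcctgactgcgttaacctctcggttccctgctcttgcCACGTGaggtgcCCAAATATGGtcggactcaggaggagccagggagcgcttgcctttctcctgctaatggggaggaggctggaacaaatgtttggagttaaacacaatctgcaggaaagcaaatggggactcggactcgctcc
AKAP12 promoter 2: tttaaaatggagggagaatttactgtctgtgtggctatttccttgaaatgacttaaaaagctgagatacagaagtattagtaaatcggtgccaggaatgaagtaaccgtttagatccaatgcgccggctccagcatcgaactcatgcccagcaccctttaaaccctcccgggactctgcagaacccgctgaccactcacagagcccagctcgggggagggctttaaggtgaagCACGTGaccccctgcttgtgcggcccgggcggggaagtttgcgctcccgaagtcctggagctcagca
AKAP12 promoter 3: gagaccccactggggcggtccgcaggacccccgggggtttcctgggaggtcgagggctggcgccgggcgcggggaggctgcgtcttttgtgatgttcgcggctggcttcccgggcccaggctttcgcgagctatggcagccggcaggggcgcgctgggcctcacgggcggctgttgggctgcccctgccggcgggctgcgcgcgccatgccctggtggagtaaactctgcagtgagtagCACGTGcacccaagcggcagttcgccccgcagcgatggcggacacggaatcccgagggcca
An E-box was present in all 3 AKAP12 promoters, against 7.26% of the 35116 promoters of the same length in the RefSeq table. The CArG box of the first promoter, CCAAATATGG, begins 81 bases before the start, and 1.29% of all promoters hold one. Among 4 further motifs searched on both strands, the AP-1 site TGANTCA, the cAMP response element TGACGTCA and the EGR site GCGNGGGCG had no match in the AKAP12 promoters, and the TEAD site GGAATG matched the second. TNS1 and TNS3 had promoters in the table and neither a CArG box nor an E-box in them, and TNS4 had no entry. These motifs were chosen after the sequences and the expression values were seen, and a match describes letters only.

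TNS4 was counted with 108 reads in DMSO, 33 in PD0332991, 131 in scrambled siRNA and 6 in CDK4/6 KD. As CPM, the count scaled to library size after TMM normalization, these are levels of 11.8, 3.62, 12.2 and 0.53. The control libraries stood together at the top, the PD0332991 library lay between, and the CDK4/6 KD library was close to the floor of 3 reads, which corresponds to 0.265 CPM there. TNS4 in scrambled siRNA and in DMSO differed by less than counting error (fold change: 1.04, 95% interval 0.797 to 1.35).

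The TNS4 level in CDK4/6 KD was 0.0468 times that in scrambled siRNA (95% interval 0.0156 to 0.0968) and 0.0488 times that in DMSO (95% interval 0.0161 to 0.101). The choice of control thus left the TNS4 value nearly the same. Both values use the CDK4/6 KD reads on which TNS4 was chosen, so both are a description. The comparison of PD0332991 with DMSO did not enter the selection, and TNS4 was lower there too (fold change: 0.31, 95% interval 0.201 to 0.457). DMSO and scrambled siRNA differed at least as much in 2.45% of 3102 genes with a level within 2 times that of TNS4. TNS4 was also lower in CDK4/6 KD than in PD0332991 (fold change: 0.158, 95% interval 0.0501 to 0.353), on 6 against 33 reads.

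**Figure D1:**
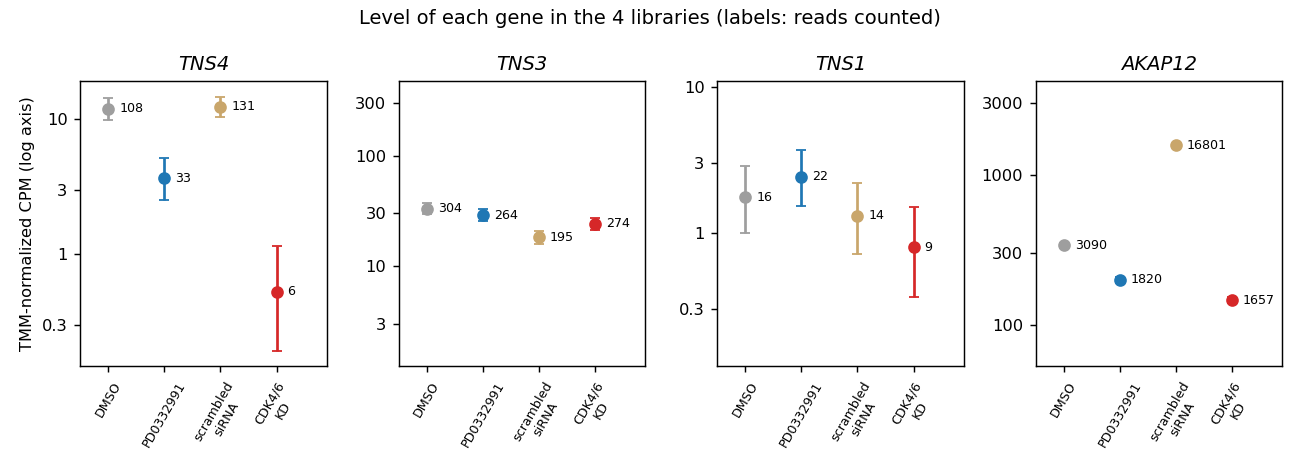
Level of TNS4, TNS3, TNS1 and AKAP12 in each of the 4 libraries as TMM-normalized CPM on log axes; each axis spans its own range, points are single libraries, bars are exact 95% Poisson intervals and labels give the reads counted. TNS4 has 108 and 131 reads in the controls and 6 in CDK4/6 KD, whereas AKAP12 has 16801 reads in scrambled siRNA alone and 3090 or fewer in the other libraries.

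AKAP12 had 3090 reads in DMSO, 1820 in PD0332991, 16801 in scrambled siRNA and 1657 in CDK4/6 KD, or levels of 338, 199.9, 1570 and 146 CPM. The scrambled siRNA library stood far above the other 3, and AKAP12 ranked 63 there among genes with at least 10 reads, against 467 in DMSO, 928 in PD0332991 and 1416 in CDK4/6 KD. All neighbours in this order differed beyond counting error. AKAP12 was 4.64-fold higher with scrambled siRNA than in DMSO (95% interval 4.47 to 4.83), and 126 of 13303 genes had a larger ratio between these control libraries. The scrambled siRNA reads entered the choice of AKAP12, so this ratio and its rank are a description.

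The AKAP12 fold change in CDK4/6 KD was therefore set by the control. It was 0.0933 against scrambled siRNA (95% interval 0.0886 to 0.0981) and 0.433 against DMSO (95% interval 0.408 to 0.46), so that the distance to DMSO was 2.31-fold rather than 10.7-fold. In PD0332991, AKAP12 was lower than in DMSO (fold change: 0.591, 95% interval 0.557 to 0.627). DMSO and scrambled siRNA differed at least as much in 7.93% of 1350 genes with a level within 2 times that of AKAP12. In a bulk library, fewer cells that express a gene and less RNA per cell cannot be told apart.

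TNS3 had 304 reads in DMSO, 264 in PD0332991, 195 in scrambled siRNA and 274 in CDK4/6 KD, or levels of 33.3, 29, 18.2 and 24.2 CPM. The scrambled siRNA library was the lowest, the reverse of AKAP12. TNS3 was higher after CDK4/6 KD than with scrambled siRNA (fold change: 1.33, 95% interval 1.1 to 1.6) and lower than in DMSO (fold change: 0.728, 95% interval 0.616 to 0.859), so its direction turned with the control. DMSO and scrambled siRNA differed at least as much as in the first of these in 38.5% of 4309 genes of similar level. The interval for PD0332991 against DMSO included 1 (fold change: 0.872, 95% interval 0.736 to 1.03).

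TNS1 was close to the limit of detection, with 16 reads in DMSO, 22 in PD0332991, 14 in scrambled siRNA and 9 in CDK4/6 KD. None of the steps between neighbouring libraries in the order of TNS1 levels exceeded counting error. The ends of that order, CDK4/6 KD and PD0332991, differed with an interval under 1 (fold change: 0.342, 95% interval 0.133 to 0.744), and this pair was looked at because it was the extreme one. A change of TNS1 in CDK4/6 KD against scrambled siRNA was not detectable at this depth (fold change: 0.621, 95% interval 0.232 to 1.51).

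Read across the members, 2 of 4 were lower by 2-fold or more after CDK4/6 KD when set against scrambled siRNA, and 0 were higher. Of all 13617 genes 7.62% were lower and 9.19% higher by that much, and nothing is read from this count because the members were chosen on it. In PD0332991 against DMSO 1 of 4 members, TNS4, was lower by 2-fold or more and 0 were higher, beside 7.06% and 7.49% of 13443 genes. In scrambled siRNA against DMSO 1 of 4 members, AKAP12, was higher by 2-fold or more and 0 were lower, beside 5.3% and 6.64% of 13303 genes. TNS3 was lower there by less than 2-fold (fold change: 0.548, 95% interval 0.455 to 0.658). PD0332991 against scrambled siRNA had 2 of 4 members lower, TNS4 and AKAP12, and 0 higher, beside 8.17% and 10.6% of genes. CDK4/6 KD against PD0332991 had 2 of 4 lower, TNS4 and TNS1, and 0 higher, beside 7.44% and 6.65% of genes. CDK4/6 KD against DMSO had 3 of 4 lower and 0 higher, beside 8.16% and 8.04% of genes. TNS1 was among those 3 with an interval that included 1 (fold change: 0.469, 95% interval 0.177 to 1.09). These 6 comparisons share 4 libraries and are not independent. All except PD0332991 against DMSO use a library on which TNS4 and AKAP12 were chosen, so their counts are a description.

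**Figure D2:**
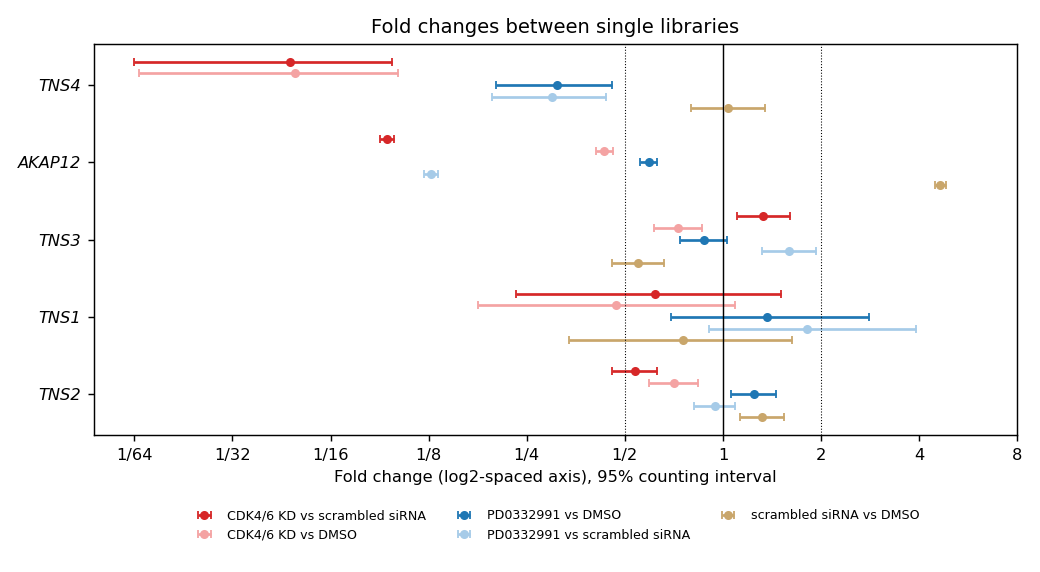
Fold changes of the 4 members and of TNS2 between single libraries, on a log2-spaced axis with 95% counting intervals as bars; the solid line marks 1 and the dotted lines 2-fold. For TNS4 the dark and pale points of each colour, which use the matching and the other control, nearly coincide (0.0468 and 0.0488 in CDK4/6 KD), whereas for AKAP12 they lie apart (0.0933 and 0.433).

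TNS2, the remaining tensin, was read from its own rows to complete the family. It had 278 reads in DMSO, 344 in PD0332991, 428 in scrambled siRNA and 243 in CDK4/6 KD. The last exon of TNS2 overlaps SPRYD3 on the opposite strand in GENCODE 29, and whether the counting used the strand is not given in the sources used here. TNS2 was lower after CDK4/6 KD than with scrambled siRNA (fold change: 0.537, 95% interval 0.457 to 0.63) and slightly higher in PD0332991 than in DMSO (fold change: 1.24, 95% interval 1.06 to 1.46).

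Because 3′ reads do not scale with length, the 4 tensins were set against each other inside a library as shares of reads. Whether the 4 genes are counted equally well was not tested. The TNS2 share also carries the overlap with SPRYD3 given above. TNS4 made up 15.3% of tensin reads in DMSO (95% Clopper-Pearson interval 12.7% to 18.2%) and 17.1% in scrambled siRNA (14.5% to 19.9%). Its share was 4.98% in PD0332991 (3.45% to 6.92%) and 1.13% in CDK4/6 KD (0.415% to 2.44%). TNS3 and TNS2 had shares with overlapping intervals in DMSO, at 43.1% (39.4% to 46.8%) and 39.4% (35.8% to 43.1%), and after CDK4/6 KD, at 51.5% and 45.7%. In PD0332991 and scrambled siRNA TNS2 had the largest share, at 51.9% and 55.7%, with TNS3 at 39.8% and 25.4%.

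The ratio of TNS4 to TNS3 uses reads of the same library and so does not depend on the scaling between libraries. There were 0.355 TNS4 reads per TNS3 read in DMSO (95% interval 0.283 to 0.444) and 0.672 in scrambled siRNA (0.534 to 0.843). PD0332991 had 0.125 (0.0843 to 0.18) and CDK4/6 KD 0.0219 (0.00797 to 0.0483). The low ratio after CDK4/6 KD repeats the reads on which TNS4 was chosen and is a description. The PD0332991 ratio, which the choice did not use, lay below both controls without overlap of the intervals, and the control libraries also differed from each other. Between PD0332991 and DMSO the interval of the TNS3 fold change included 1, while between the controls it was TNS4 whose interval included 1.

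**Figure D3:**
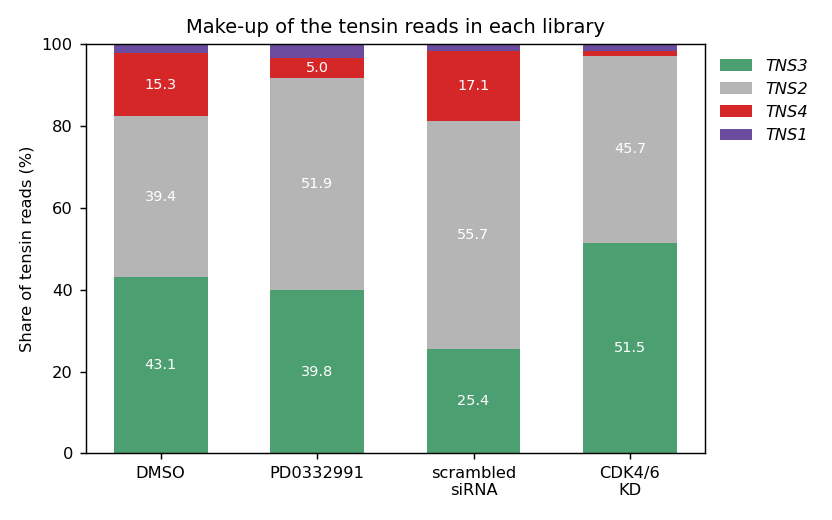
Share of each tensin in the reads counted on TNS1, TNS2, TNS3 and TNS4 together, in percent, with 1 bar per library. The TNS4 part is 15.3% in DMSO and 17.1% in scrambled siRNA, 4.98% in PD0332991 and 1.13% in CDK4/6 KD, where it is too thin to carry a label.

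The genes most like each member were taken by the distance between centred log2(CPM + 0.5) values over the 4 libraries, among genes with at least 50 reads in some library. The gene nearest to TNS4 was CCL20, a chemokine, at a distance of 0.72, with 428 reads in DMSO, 103 in PD0332991, 487 in scrambled siRNA and 61 in CDK4/6 KD. SLC25A32, KCTD20, MT2A and FCER1G followed, at distances from 1.13 to 1.22. This distance grows with the size of the differences, which in TNS4 and AKAP12 were large by choice, so distances are not compared between members.

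AKAP12 had LYVE1 as its nearest gene, at a distance of 0.27 and on 78 reads at most. PHLDA2, an imprinted gene that limits placental growth, came next (distance 0.47) with 179 reads in DMSO, 124 in PD0332991, 830 in scrambled siRNA and 120 in CDK4/6 KD. LAIR2, ASB4 and the immediate early gene IER3 completed the 5, at distances of 0.62, 0.65 and 0.73. All 5 shared the peak in scrambled siRNA. TNS4 and AKAP12 themselves were 1.95 apart. Their centred values were 1.28 and -0.06 in DMSO, -0.3 and -0.82 in PD0332991, 1.33 and 2.15 in scrambled siRNA, and -2.3 and -1.27 in CDK4/6 KD. The 5 genes most like TNS3 ran from XRCC6BP1 at 0.02 to SYT15 at 0.08, and those most like TNS1 from KLHL36 at 0.09 to DMTN at 0.13, on few TNS1 reads.

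**Figure D4:**
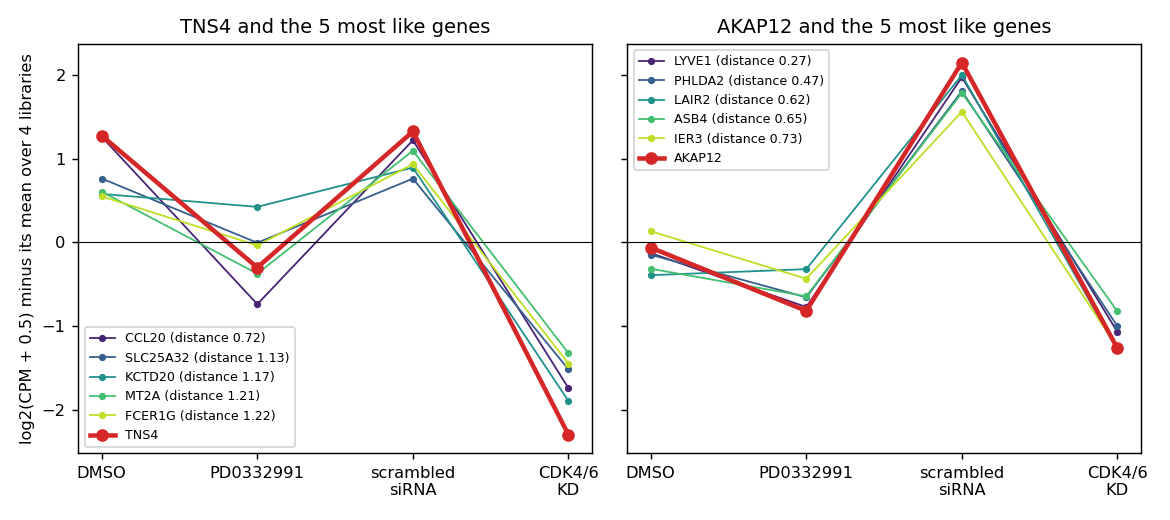
Centred log2(CPM + 0.5) in each library for TNS4 and for AKAP12 (thick red lines) with the 5 most like genes of each; lines join libraries only to guide the eye, since the libraries have no order. The TNS4 line has its high points in DMSO and scrambled siRNA (1.28 and 1.33), and the AKAP12 line has a single high point in scrambled siRNA (2.15).

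Proteins that tensins bind were read from a list of 12 genes, of which 11 passed the filter of 10 reads in either library. In CDK4/6 KD against scrambled siRNA 1 of the 11 was at least 2-fold lower and 0 were higher, with a median log2 fold change of -0.21 beside -0.0036 over all genes. Of all genes 7.62% were lower and 9.19% higher by that much. The gene past 2-fold was AXL, a receptor tyrosine kinase (fold change: 0.257, 95% interval 0.17 to 0.372), with 54 reads in DMSO, 54 in PD0332991, 130 in scrambled siRNA and 35 after CDK4/6 KD, and its fold change against DMSO was 0.527 (0.332 to 0.815). ITGB1, the integrin beta subunit whose tail tensins contact, had levels of 162, 194.5, 256 and 148 CPM in the DMSO, PD0332991, scrambled and CDK4/6 KD libraries (fold change in CDK4/6 KD: 0.579, 95% interval 0.544 to 0.615). EGFR, the receptor for epidermal growth factor, had 40.7, 39.9, 54.1 and 33.8 CPM in the same order. MET, the hepatocyte growth factor receptor, which TNS4 binds, had 64, 64.7, 96.6 and 83.4 CPM. Each of these 4 partners was highest in scrambled siRNA. Of the other partners past the filter, STARD13, BCAR1 and CBL were also highest there. DLC1, PTK2, SRC and ILK were instead highest in CDK4/6 KD. In PD0332991 against DMSO 0 of the 11 partners passed 2-fold, where 14.6% of all genes did in either direction.

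Integrin adhesion genes were read from a list of 30, with 29 past the filter in CDK4/6 KD. Of these, 5 were at least 2-fold lower and 2 at least 2-fold higher than in scrambled siRNA, beside 7.62% and 9.19% of all genes, with a median log2 fold change of -0.23. With total counts alone 2 rather than 5 were at least 2-fold lower. With DMSO as the control, 6 of 29 were at least 2-fold lower after CDK4/6 KD and 1 higher. Of all genes 8.16% were lower and 8.04% higher there. The median log2 fold change of the list against DMSO was -0.06. FHL2, a LIM-domain protein of adhesions and nucleus, was lower after CDK4/6 KD than with scrambled siRNA (fold change: 0.294, 95% interval 0.22 to 0.385). It was also lower in PD0332991 than in DMSO (fold change: 0.5001, 95% interval 0.373 to 0.662). FERMT2, the integrin activator kindlin-2, had fold changes of 0.495 (95% interval 0.434 to 0.562) and 0.585 (0.512 to 0.666) in the same comparisons. Its level was similar in both controls, at 68.4 CPM in DMSO and 64.9 in scrambled siRNA. TLN1, which encodes talin, was 2.5-fold higher after CDK4/6 KD than with scrambled siRNA, but its level of 143 CPM in CDK4/6 KD equalled that in DMSO (143 CPM), and scrambled siRNA was the low library (57.1 CPM). VASP, which elongates actin filaments, had the mirror pattern, with 66.8 CPM in DMSO, 139.5 in scrambled siRNA and 69.1 in CDK4/6 KD. TRIP6, the other gene past 2-fold upward, rested on 5 and 13 reads. In PD0332991 1 of 28 adhesion genes was at least 2-fold lower, beside 7.06% of all genes. It was KANK2 (fold change: 0.498, 95% interval 0.385 to 0.637).

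Genes driven by the EGF receptor and ERK form a pathway to which TNS4 is known to respond. In CDK4/6 KD 11 of 20 were at least 2-fold lower than in scrambled siRNA and 0 higher, with a median log2 fold change of -1.27. Of all genes 7.62% were lower and 9.19% higher by that much. Between the controls, 8 of the same 20 were at least 2-fold higher with scrambled siRNA than in DMSO, beside 5.3% of all genes. The firmest of the 11, EGR1, IER3 and DUSP5, had fold changes of 0.0279, 0.141 and 0.102 in CDK4/6 KD, and in scrambled siRNA against DMSO of 7.81, 2.7 and 2.76. They were thus of the AKAP12 kind, and against DMSO their fold changes were 0.218, 0.38 and 0.282. In that comparison 9 of 19 genes of the list were at least 2-fold lower and 0 higher, beside 8.16% and 8.04% of all genes. The median log2 fold change of the list was -0.95. FOSL1, a subunit of the AP-1 transcription factor, was of the TNS4 kind, with 115 reads in DMSO, 42 in PD0332991, 137 in scrambled siRNA and 62 in CDK4/6 KD. In PD0332991 2 of 20 were at least 2-fold lower, beside 7.06% of all genes. They were FOSL1 (fold change: 0.369, 95% interval 0.251 to 0.526) and the ephrin receptor gene EPHA2 (fold change: 0.376, 95% interval 0.309 to 0.453). The word kind describes which controls were alike and was applied after the values were seen.

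Among the other A-kinase anchoring proteins, 13 of 15 passed the filter in CDK4/6 KD, with 0 at least 2-fold lower and 1 at least 2-fold higher than in scrambled siRNA. Of all genes 7.62% were lower and 9.19% higher by that much. The median log2 fold change of these 13 was 0.2. The higher gene was AKAP14, with 7 reads for scrambled siRNA and 30 after CDK4/6 KD (fold change: 3.85, 95% interval 1.74 to 10.9). AKAP1, which anchors kinases at mitochondria, had a fold change of 0.959 (95% interval 0.886 to 1.04). In PD0332991 3 of 14 were at least 2-fold higher and 1 lower than in DMSO, with AKAP6 (6 and 18 reads) and AKAP14 (9 and 21 reads) the firmest of the higher ones and AKAP5 (18 and 4 reads) the lower one. Of all genes 7.49% were higher and 7.06% lower there.

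Protein kinase A subunits and inhibitors, the cargo of A-kinase anchoring proteins, had 7 of 10 genes past the filter in CDK4/6 KD, of which 2 were at least 2-fold lower. Of all genes 7.62% were lower by that much. PRKAR2A, a regulatory subunit of the type that anchoring proteins bind, had 99 reads in DMSO, 92 in PD0332991, 150 in scrambled siRNA and 68 after CDK4/6 KD (fold change: 0.43, 95% interval 0.317 to 0.574). PKIB, an inhibitor of the kinase, had 8, 4, 81 and 25 reads in the same order, again with the peak in scrambled siRNA. With DMSO as the control neither call was kept, with fold changes of 0.556 for PRKAR2A (95% interval 0.401 to 0.763) and 2.44 for PKIB (1.1 to 6.47). None of 5 protein kinase C genes passed 2-fold in CDK4/6 KD or in PD0332991, beside 16.8% and 14.6% of all genes in either direction. A list of genes linked to cAMP and CREB was read as well. It had 3 genes higher and 2 lower of 11 in CDK4/6 KD, beside 9.19% and 7.62% of all genes. In PD0332991 1 was higher and 2 lower of 10, beside 7.49% and 7.06%. The higher gene was G6PC, on 12 reads in DMSO and 67 in PD0332991. CRTC2, a CREB coactivator, was among the 3 higher on 5 and 17 reads in scrambled siRNA and CDK4/6 KD. It was also among the 2 lower in PD0332991, on 37 reads in DMSO and 3 in PD0332991. With DMSO as the control, CDK4/6 KD had 0 higher and 3 lower of 10, beside 8.04% and 8.16% of all genes. The median log2 fold change of the list was -0.74 there, and none of the 3 higher calls was kept. CREM, 1 of the 3, kept its direction. Its fold change was 2.32 against scrambled siRNA (95% interval 1.87 to 2.91) and 1.81 against DMSO (1.46 to 2.25). SIK1, which restrains CREB coactivators, was among the first 3 (fold change: 3.31, 95% interval 2.42 to 4.68), with a fold change of 1.23 against DMSO (95% interval 0.969 to 1.58). It was also among the 2 lower in PD0332991 (fold change: 0.42, 95% interval 0.29 to 0.591).

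Targets of serum response factor and its actin-regulated partners, read because tensins act on actin, gave 2 of 19 genes at least 2-fold higher and 1 lower in CDK4/6 KD. Of all genes 9.19% were higher and 7.62% lower by that much. The smooth muscle actin-binding genes CNN1 and TAGLN were higher (fold changes of 10.3, 95% interval 5.48 to 24.3, and 3.09, interval 2.71 to 3.55), and TGFBI was lower (fold change: 0.379, 95% interval 0.342 to 0.42). Scrambled siRNA was the lower control for all 3, and against DMSO the fold changes were 4.09 for CNN1 (95% interval 2.56 to 7.09), 1.54 for TAGLN (1.38 to 1.72) and 0.142 for TGFBI (0.129 to 0.156). SRF itself had 224, 231, 208 and 224 CPM in the DMSO, PD0332991, scrambled and CDK4/6 KD libraries. The list median log2 fold change of 0.01 lay near that of all genes. In PD0332991 0 of 19 were at least 2-fold higher and 1 lower, CNN1, on 20 reads in DMSO and 3 in PD0332991. The shares over all genes there were 7.49% and 7.06%.

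**Figure D5:**
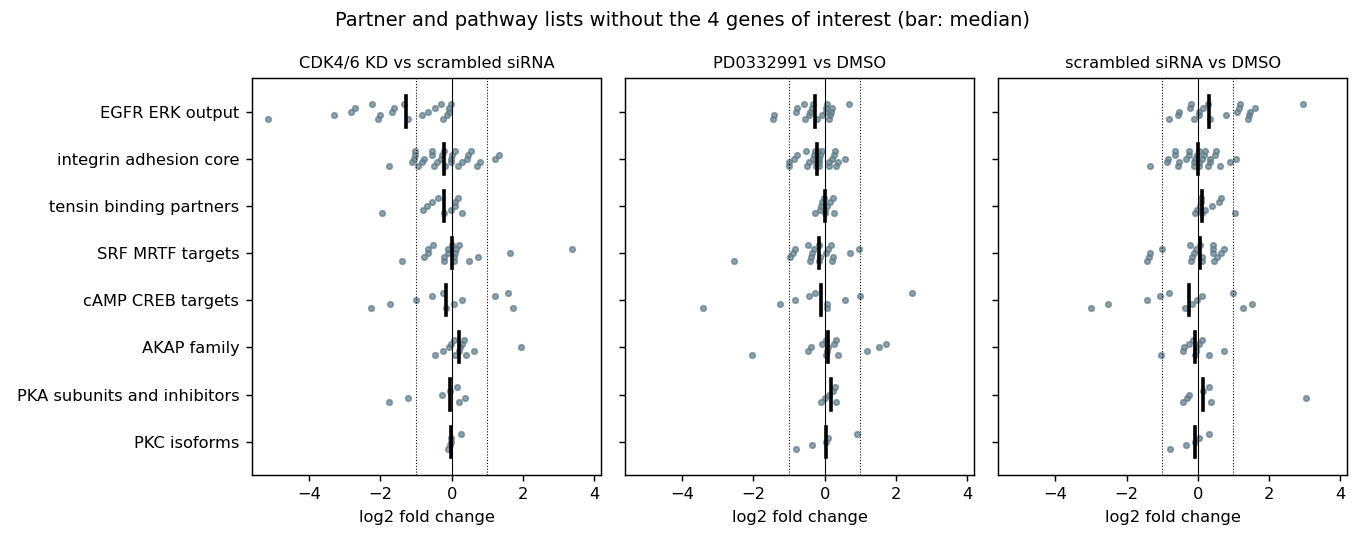
Log2 fold changes of the genes past the filter in 8 partner and pathway lists, without the 4 members, in 3 comparisons of single libraries; points are genes, black bars are list medians and dotted lines mark 2-fold. The genes of the EGF receptor and ERK list sit to the left in CDK4/6 KD against scrambled siRNA (median -1.27) and to the right in scrambled siRNA against DMSO (median 0.31).

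The protein-coding genes nearest to TNS4 and AKAP12 were read to see whether their surroundings moved too. IGFBP4, 18097 bases from TNS4, had 325 reads in DMSO, 416 in PD0332991, 414 in scrambled siRNA and 275 after CDK4/6 KD (fold change: 0.628, 95% interval 0.537 to 0.733), and CCR7 on the other side had 3 reads at most. ZBTB2, 5560 bases beyond AKAP12, had 215, 143, 174 and 204 reads in the same order, and MTHFD1L on the far side 407, 471, 661 and 624. ZBTB2 was highest in DMSO. MTHFD1L was highest in scrambled siRNA, as AKAP12 was, but with a ratio to DMSO of 1.39 (95% interval 1.22 to 1.57) against 4.64 for AKAP12.

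The libraries held between 8983848 and 11176880 reads, with TMM factors from 0.957 to 1.03. CDK4 and CDK6 were lower in the library labelled CDK4/6 KD than in scrambled siRNA (fold changes of 0.203 and 0.241). All 10 hepatocyte markers had at least 10 reads in each library, with a summed level of 17440 to 22299 CPM. Of the defining markers of other cells, CDH5 (endothelium) and CD3E (T cells) were at 0 in all libraries and PTPRC (leukocytes) had 2 reads at most. The summed level of 10 fibroblast markers, mostly COL1A1, was 50.3 CPM in DMSO, 81.9 in PD0332991, 9.16 in scrambled siRNA and 23.4 in CDK4/6 KD. That of 10 endothelial markers, mostly ESAM, was 16, 8.79, 41.1 and 8.22 CPM, and that of 10 leukocyte markers, mostly LYZ, was 756, 522, 1037 and 512 CPM. The endothelial and leukocyte sums were highest in scrambled siRNA, as AKAP12 was. The sum of 12 keratinocyte markers was 205, 216, 364 and 206 CPM, with SFN and KRT10 the most counted, while KRT14 had 9, 249, 31 and 74 reads in that order. The part of any of these in the results above was not tested.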

How the data were processed

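Gene expression was measured in 4 QuantSeq 3′ mRNA libraries of HepG2 cells, 1 per condition, grouped by the sample titles. The values are raw counts by gene symbol, which the authors deposited without normalization. The submitters' processing notes name hg19, Bowtie2 and edgeR, and the annotation is not given in the sources used here. Each table lists 25737 entries, and the counts of 286 repeated symbols were summed. Library sizes were corrected with TMM factors (edgeR 4.0.16). Fold changes used a pseudocount of 0.5 reads and required 10 reads or more in 1 of the libraries compared. A count of 3 reads was the floor. Their 95% intervals treat a gene's reads as split between the libraries (exact Clopper-Pearson, scipy 1.17.1), and levels have exact Poisson intervals. They leave out PCR copies. The quasi-likelihood test of edgeR needs replicates and was left out. The procedure was run on simulated counts with Poisson error only, the error its intervals assume. That run therefore cannot show how the intervals behave with variation between libraries. Alternatives were DESeq2 1.42.0 size factors, total counts, quantile normalization (limma 3.58.1), a pseudocount of 5 reads, the other control, filters of 0 or 50 reads, other thresholds, and, for repeated symbols, only the entry with most reads. Positions and promoters are from GRCh38, not from the files.

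Members, gene lists and alternatives were chosen with earlier results of these data known. Named genes were the members, TNS2, CDK4, CDK6, the firmest genes past 2-fold of each list (3 each way in CDK4/6 KD, 2 in PD0332991, by the interval end nearest to 1), the 5 most like each member and the nearest coding genes. ITGB1, EGFR, MET, SRF, AKAP1 and the defining cell type markers were named outside this rule after their values were seen. For fibroblast, endothelial and leukocyte lists only sums and defining or leading genes are given. For keratinocytes the counts past 2-fold in PD0332991 are given too.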

Additional observations from a re-analysis of the deposited data

How the results depend on the processing

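The AKAP12 fold change in CDK4/6 KD against scrambled siRNA, 0.0933, moved to 0.1002 with total counts, 0.0995 with quantile normalization and 0.433 against DMSO. In scrambled siRNA against DMSO, AKAP12 moved from 4.64 to 4.44 and 4.36 with total counts and quantile normalization. Against scrambled siRNA the PD0332991 fold change of AKAP12 was 0.127 and that of TNS3 1.59, and against DMSO the CDK4/6 KD fold change of TNS3 was 0.728, so only the other control turned a direction of TNS3 in these comparisons. The TNS4 and TNS1 fold changes stayed within their counting intervals under every alternative run. Total counts alone shifted the log2 fold changes of CDK4/6 KD against scrambled siRNA by 0.10.

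The counts of genes past 2-fold moved by their construction with filters and thresholds. Higher and lower genes in CDK4/6 KD were 1252 and 1037, and became 3005 and 2060 with no filter, 632 and 676 with 50 reads, 2637 and 2368 at 1.5-fold, and 454 and 438 with the whole interval past 2-fold. In PD0332991 the counts of 1007 and 949 became 2814 and 2036 with no filter, 2259 and 2024 at 1.5-fold, 226 and 455 with the whole interval, and 406 higher with 50 reads. For scrambled siRNA against DMSO 705 and 883 became 1909 and 2372, 311 and 465, 1783 and 2092, and 165 and 265 with no filter, 50 reads, 1.5-fold and the whole interval. Of 112 recomputed counts for gene lists, 31 moved by more than 1.5 times or away from 0. Depth limits TNS1, on 9 to 22 reads, whose fold change in CDK4/6 KD against scrambled siRNA has an interval from 0.232 to 1.51. No paired analysis was possible because each condition has 1 library.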

Other observations

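In the human genome, tensin genes lie beside genes for insulin-like growth factor binding proteins, and this pairing was looked at after the values were seen. In GENCODE 29, 33064 bases separate TNS2 from IGFBP6 and 18097 bases separate TNS4 from IGFBP4, with 0 protein-coding genes lying wholly between (SPRYD3 overlaps the end of TNS2). TNS3 and IGFBP3 are 1353 kb apart, also with 0 coding genes between, and TNS1 and IGFBP5 1104 kb apart with 1. IGFBP6 had 34 reads in DMSO, 59 in PD0332991, 110 in scrambled siRNA and 36 after CDK4/6 KD (fold change: 0.312, 95% counting interval 0.206 to 0.454). IGFBP3 and IGFBP5 had at most 27 and 19 reads. IGFBP1, beyond IGFBP3 on chromosome 7, had 1376, 4282, 4333 and 139 reads in the same order, while TNS3 had 304, 264, 195 and 274. IGFBP1 was thus higher in PD0332991 than in DMSO (fold change: 3.12, 95% counting interval 2.94 to 3.32) and lower after CDK4/6 KD than with scrambled siRNA (fold change: 0.0304), opposite directions in the 2 comparisons, in contrast to TNS4, which was lower in both.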
